A study of Mus musculus with 15 samples.

Results

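ACF1 segments were compared between the nucleus accumbens of susceptible mice and that of control mice. A segment is a stretch of the genome that the authors' 2-state division of the ACF1 ChIP-seq signal assigned to its minority state, E2. All E2 stretches on the 19 autosomes were taken, which gave 990 segments in susceptible mice and 631 in control mice, together 1621 of the 2598 segments on all chromosomes in the 3 ACF1 lists of the series. A segment was called matched when it overlapped a segment of the other list by at least 1 bp. The lists do not tell whether E1 or E2 marks bound ACF1, so "segment" below means a stretch of state E2 and no more.

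Susceptible mice were C57BL/6J mice that met a new aggressive CD1 mouse for 10 min on each of 10 days, a regime called chronic social defeat stress, and that a social interaction test then placed in the susceptible group. Resilient mice went through the same defeats and were placed in the resilient group by the same test, and control mice were the third group of the study. Accumbens tissue was collected 48 hours after defeats ended, punches from 10 mice were pooled per replicate, and sheared, lightly fixed chromatin was precipitated with an antibody against ACF1. The labels speak of triplicates, but each group had 1 deposited list, so there was no spread between replicates, no test of any difference, and no p-value. The files give no read count, so depth was unknown, and fewer cells of a type could not be told apart from less ACF1 per cell.

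ACF1, encoded by Baz1a, is the large accessory subunit of the ACF complex, in which the ATPase SNF2H (Smarca5) slides nucleosomes along DNA and spaces them evenly. Regular spacing is known to make a stretch of chromatin less open to other factors. The nucleus accumbens is a forebrain region of reward and motivation, and most of its neurons are inhibitory medium spiny neurons.

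Susceptible mice had more segments than control mice, and the excess in length was larger than the excess in number. The 990 susceptible segments covered 3214 kb, or 0.130% of the autosomes, against 631 segments, 1733.4 kb and 0.0701% in control mice. The susceptible list thus held 1.57 times as many segments and 1.85 times the length, a difference of 1480.6 kb. The resilient list, from mice with the same defeats, held 587 segments over 1880.6 kb, closer to the control list in both respects. The typical segment was equally narrow in both lists, with a median of 1000 bp in susceptible and 1000 bp in control mice. The lists parted at the upper end, where the third quartile was 2200 bp in susceptible and 1400 bp in control mice. Segments of 10 kb or more numbered 72 in susceptible mice, 37 in resilient mice and 32 in control mice. They held 1706.4 kb, or 53.1% of the susceptible length, against 838 kb, or 48.3% of the control length. The resilient share, 49.4%, lay nearer to the control share. Segments of at most 1000 bp made up nearly the same share of each list, with 597 (60.3%) in susceptible and 378 (59.9%) in control mice.

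**Figure D1:**
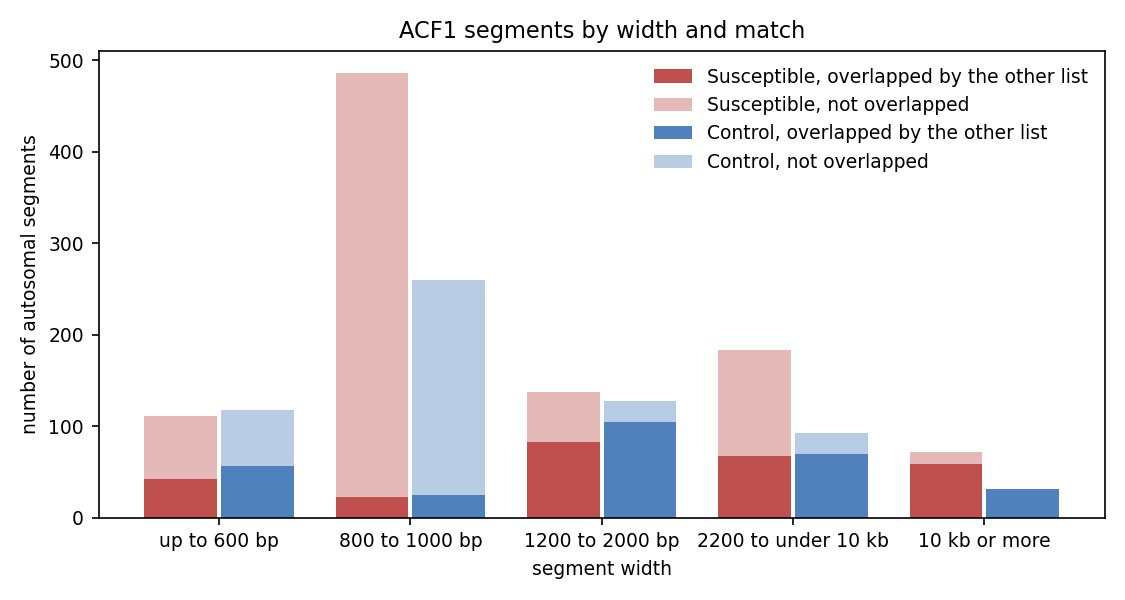
Widths of autosomal ACF1 segments in susceptible and control mice, as the number of segments per width class in bp, each bar divided into segments with and without a match in the other list. The susceptible list had most of its extra segments at 800 to 1000 bp, with 486 against 260, and few of those were matched.

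Whether a segment was found in the other list depended strongly on its width. Among segments of 800 to 1000 bp, 23 of 486 susceptible (4.73%) and 25 of 260 control segments (9.62%) were matched. Among segments of 10 kb or more, 59 of 72 susceptible (81.9%) and all 32 control segments (100%) were matched. The order was not a steady climb, since both lists had a higher matched share just below and just above that class. Segments of 1200 bp were matched in 80.8% of 73 susceptible and 90.7% of 75 control cases, and 48 of these had the same bounds in both lists. Segments of 1000 bp were matched in 2.60% of 192 susceptible and 4.60% of 87 control cases. The resilient list, which played no part in the matching, showed the same break, holding 75.3% of the susceptible and 78.7% of the control segments of 1200 bp, and 2.60% and 1.15% of those of 1000 bp in susceptible and control mice.

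In all, 275 susceptible segments (27.8%) had a control match and 289 control segments (45.8%) had a susceptible match. The matched segments held 1971.2 kb, or 61.3% of the susceptible length, and 1381.2 kb, or 79.7% of the control length. The base pairs common to both lists came to 1300.6 kb, which was 40.5% of the susceptible and 75% of the control length. Most of the control length therefore lay inside susceptible segments, while most of the susceptible length lay outside control segments. The same shared length is here set against 3214 kb in susceptible and 1733.4 kb in control mice, so the shares differ through list length. The shares by number likewise rest on lists of 990 susceptible and 631 control segments. Of the matched segments, 82.5% in susceptible and 80.3% in control mice also overlapped a resilient segment. Of the unmatched ones, 52 of 715 in susceptible mice (7.27%) and 21 of 342 in control mice (6.14%) did so. By number, unmatched segments were thus rarely found in the resilient list from either side. By length the sides differed, since those found there held 253.4 of 1242.8 kb in susceptible and 25.4 of 352.2 kb in control mice.

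The unmatched segments were narrow in both lists, but those of susceptible mice included wide ones. Their median was 1000 bp in susceptible mice, with a maximum of 28200 bp, and 800 bp in control mice, with a maximum of 7800 bp. Unmatched segments of 10 kb or more numbered 13 in susceptible mice and 0 in control mice. Over all unmatched segments, the median distance to the other list was 1215 kb in susceptible and 834 kb in control mice, and 18.2% in susceptible and 18.4% in control mice lay within 100 kb of it. Susceptible segments without a match lay within 100 kb of another segment of their own list in 186 cases (26.0%), against 37 control segments (10.8%). These distances are to lists of unlike size, 990 susceptible and 631 control segments, and the part of list size was not tested.

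The widest susceptible segment with no control match lay on chromosome 17 from 13407201 to 13435400, 28200 bp over Smok2a and Smok2b, which encode sperm motility kinases, and neither the resilient nor the control list had any of it. The next lay on chromosome 7 from 39198801 to 39225800, 27000 bp with no gene named in the tables. A control segment of 5000 bp, also unmatched, started at 39226801, 1000 bp beyond its right end. Chromosome 5 held a susceptible segment from 15021601 to 15045200 over the predicted gene Gm17019, of which 9200 bp lay in resilient and 0 bp in control segments. On chromosome 4 a susceptible segment of 18000 bp started at 145666601, over Gm13247 and 1700095A21Rik, and was absent from the resilient and control lists. The widest control segment with no susceptible match was 7800 bp wide, on chromosome 3 from 25448801 to 25456600, within Nlgn1, which encodes the excitatory synapse adhesion protein neuroligin 1. Susceptible mice had a segment of 4000 bp elsewhere in the same gene. The other wide unmatched control segments were on chromosome 1 from 162084201 (5400 bp), on chromosome 7 over Zscan5b (4600 bp) and on chromosome 2 from 63626001 (4200 bp), all of them narrower than every one of the 8 widest unmatched susceptible segments.

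The matched segments formed 273 groups, of which 257 paired 1 susceptible with 1 control segment. In these pairs the susceptible segment was the wider in 97 (37.7%), equal in 125 and narrower in 35 (13.6%), and 124 pairs had identical bounds. Widening was therefore a feature of a minority of pairs. Among the 97 wider pairs the median width was 6600 bp in susceptible and 1800 bp in control mice, and the median length added was 2800 bp, while the 35 narrower pairs lost a median of 800 bp. A difference of 5 kb or more favoured the susceptible list in 35 pairs and the control list in 1. The pairs together held 1296.8 kb in susceptible and 867.6 kb in control mice, a ratio of 1.49. Both edges moved about equally often, the left edge lying further out in susceptible mice in 74 pairs and in control mice in 27, the right edge in 75 and 31.

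**Figure D2:**
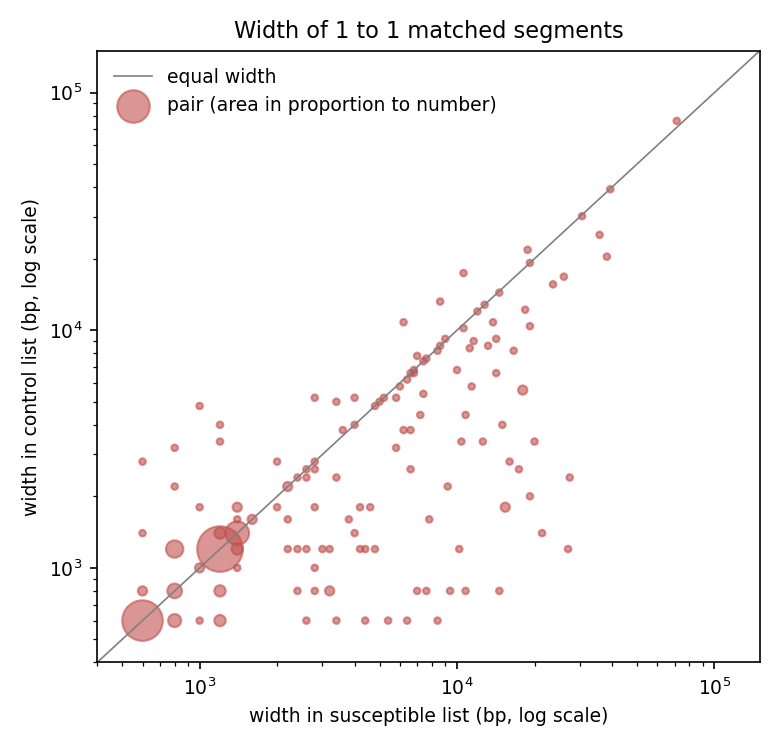
Widths in bp of the 257 pairs of 1 susceptible (horizontal axis, log scale) and 1 control segment (vertical axis, log scale), with point area in proportion to the number of pairs and a line of equal width. The 125 pairs of equal width lie on the line, and more pairs lie on its susceptible side (97) than on its control side (35).

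The largest widening was on chromosome 5 from 14970801 to 14997800, where a susceptible segment of 27000 bp met a control segment of 1200 bp. The susceptible segment reached into the right end of Speer8-ps1, a pseudogene of a testis-expressed family. That gene ends at 14978541, and the control segment started at 14994001, outside it. On chromosome 4, from 145264201 to 145291600, a susceptible segment of 27400 bp over the predicted gene Gm13242 met a control segment of 2400 bp. On chromosome 17, from 13498201 to 13519600, the widths were 21400 bp in susceptible and 1400 bp in control mice. All 3 of these regions held 1 short control segment within a much longer susceptible one. The pair that went furthest the other way lay on chromosome 16 from 3231001 to 3248400, with 10600 bp in susceptible and 17400 bp in control mice. The pair over Sp110 and Sp140, whose products sit in nuclear bodies of immune cells, was also narrower in susceptible mice, with 71400 bp against 76000 bp in control mice.

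Neighbouring control segments were joined into 1 susceptible segment in 14 groups, and 1 control segment was split into several susceptible ones in 2 groups. The 14 joined groups held 14 susceptible segments over 611.4 kb, against 30 control segments over 448.2 kb. They bridged 16 gaps of 2600 to 16800 bp, with a median of 6800 bp. Joining thus lowered the number of susceptible segments while raising their length. Of the 14 groups, 6 were on chromosome 1, 3 on chromosome 8, 2 on chromosome 4, and 1 each on chromosomes 11, 14 and 16. The widest, on chromosome 8 from 19917001 to 20037200, was 1 susceptible segment of 120200 bp, against 2 control segments with 111200 bp, over Gm15319, 2610005L07Rik and 6820431F20Rik. A neighbour from 19857001 to 19900200 was 1 susceptible segment of 43200 bp, against 3 control segments that covered 15800 bp. The longest gap, 16800 bp, lay on chromosome 1 between 90115401 and 90159400, where susceptible mice had 39400 bp, over all of Mroh2a and part of Hjurp, and control mice 22600 bp, over part of Mroh2a and the last bases of the Ugt1a genes. The Ugt1a genes encode glucuronidating enzymes and share their last exons. A separate susceptible segment covered 2800 bp of each Ugt1a gene with bounds except Ugt1a1, which had 667 bp. Control cover was 1177 bp in each but Ugt1a6b, which had 173 bp. Gm13251 on chromosome 4 lay in 1 susceptible segment of 35600 bp, against 3 control segments with 15600 bp. The resilient list covered 35600 bp there, as many as the susceptible list. Both split groups were in the same neighbourhoods, on chromosome 4 within Gm13152 and on chromosome 8 over Gm21119, and they covered 63.0 kb in susceptible and 65.4 kb in control mice.

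**Figure D3:**
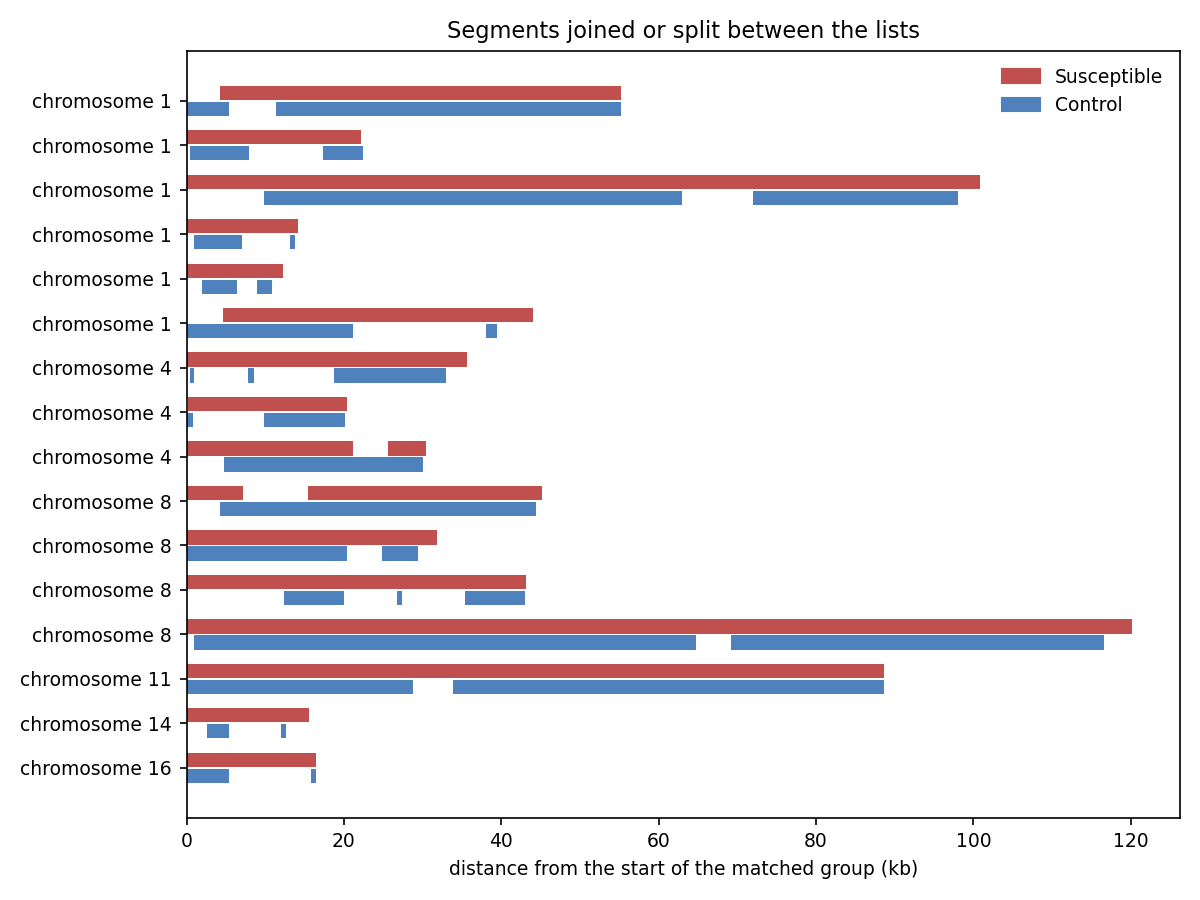
The 14 joined and 2 split groups, 1 per line and named by chromosome, drawn as distance in kb from the left end of each group, with susceptible segments above control segments. In the 14 joined groups the susceptible segment spans each gap between control segments, from 2600 to 16800 bp, and the 2 split groups lie on chromosomes 4 and 8.

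The excess was spread over the genome. All 19 autosomes had more segments and more length in susceptible than in control mice, with median ratios of 1.53 in number and 1.88 in length. Chromosome 14 stood highest in length, with 153.8 kb in susceptible and 38 kb in control mice, a ratio of 4.05. Chromosome 11 stood lowest, with 29 segments and 127 kb in susceptible and 28 segments and 117.2 kb in control mice. At least 2 times as many segments were found on 4 chromosomes, which were chromosome 2 with 52 against 22, chromosome 12 with 49 against 22, chromosome 14 with 50 against 25 and chromosome 15 with 34 against 16.

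**Figure D4:**
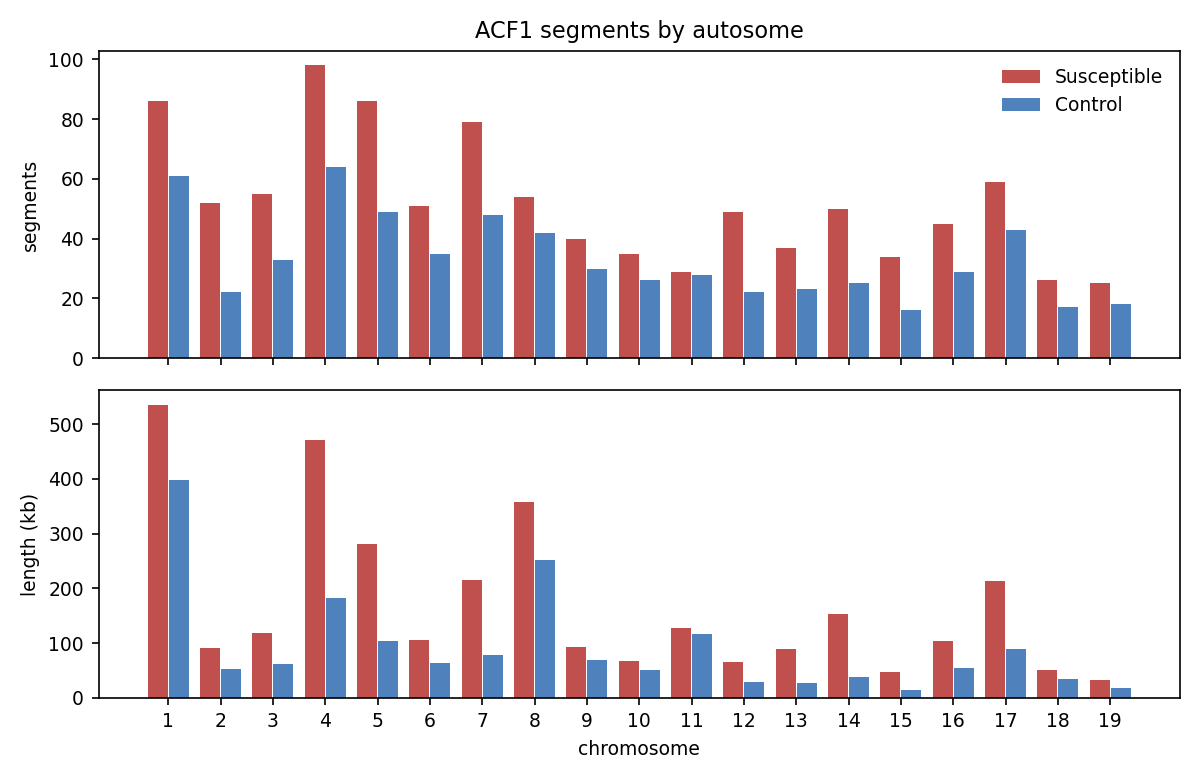
Number of ACF1 segments (upper panel) and their length in kb (lower panel) on each autosome, with susceptible bars to the left of control bars. The susceptible bar is the taller on all 19 autosomes, by least on chromosome 11.

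In both lists length was concentrated in a few regions while number was not. Cut into blocks of 1 Mb, the autosomes had 273 blocks with segments of both lists, 383 with susceptible segments alone and 195 with control segments alone. The 10 fullest blocks held 1318.6 kb in susceptible mice (41.0% of the length) and 829.2 kb in control mice (47.8%), but 79 and 71 of the susceptible and control segments. Outside them, 911 segments over 1895.4 kb remained in susceptible and 560 over 904.2 kb in control mice, so most of the difference in both number and length lay there. The ratios outside these blocks were 1.63 in number and 2.10 in length. The block from 13 to 14 Mb of chromosome 17 held 104 kb in susceptible, 4.2 kb in resilient and 18.8 kb in control mice. The block from 145 to 146 Mb of chromosome 4 held 176.8 kb in susceptible, 134 kb in resilient and 50 kb in control mice. These blocks differed in where the resilient list lay, close to the control list on chromosome 17 and nearer to the susceptible list on chromosome 4. A block of small segments, from 89 to 90 Mb of chromosome 12, held 6 susceptible segments with 6 kb in all, and neither resilient nor control segments. From 3 to 4 Mb, near the centromeric end, susceptible mice had 45 segments with 327.2 kb and control mice 31 segments with 230.8 kb. Blocks hold segments by their start. A susceptible segment of chromosome 9 from 2999401 to 3038800 thus counts in the block before 3 Mb.

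Genes could be examined only where the authors' deposited H3 tables name them, which gave bounds for 7788 autosomal genes. Of these, 190 (2.44%) held a susceptible segment and 142 (1.82%) a control segment. Both lists had a segment in 80 genes (1.03%), susceptible mice alone in 110 (1.41%) and control mice alone in 62 (0.796%). Most genes found in 1 list alone held little, since 72 of the 110 susceptible and 57 of the 62 control genes were covered over at most 1000 bp. These genes were long, with median lengths of 78.6 kb in the susceptible and 122 kb in the control set, against 35.2 kb over all 7788 genes. The part of gene length in these counts was not tested. Of the 80 genes with both, 27 had more base pairs covered in susceptible mice, 41 had equal cover and 12 had more in control mice. Overlapping genes were counted apart, so these counts are not of separate loci. The same 2800 bp of susceptible cover put Ugt1a2, Ugt1a5, Ugt1a6a, Ugt1a6b, Ugt1a7c, Ugt1a9 and Ugt1a10 among the 27. Ugt1a1, at the same locus, was among the 12. Resilient mice had a segment in 66 of the 80 genes, in 9 of the 110 and in 3 of the 62, against 106 of all 7788 genes. A segment over a named gene was no more frequent in susceptible mice, with 192 of 990 segments (19.4%), than in control mice, with 143 of 631 (22.7%).

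**Figure D5:**
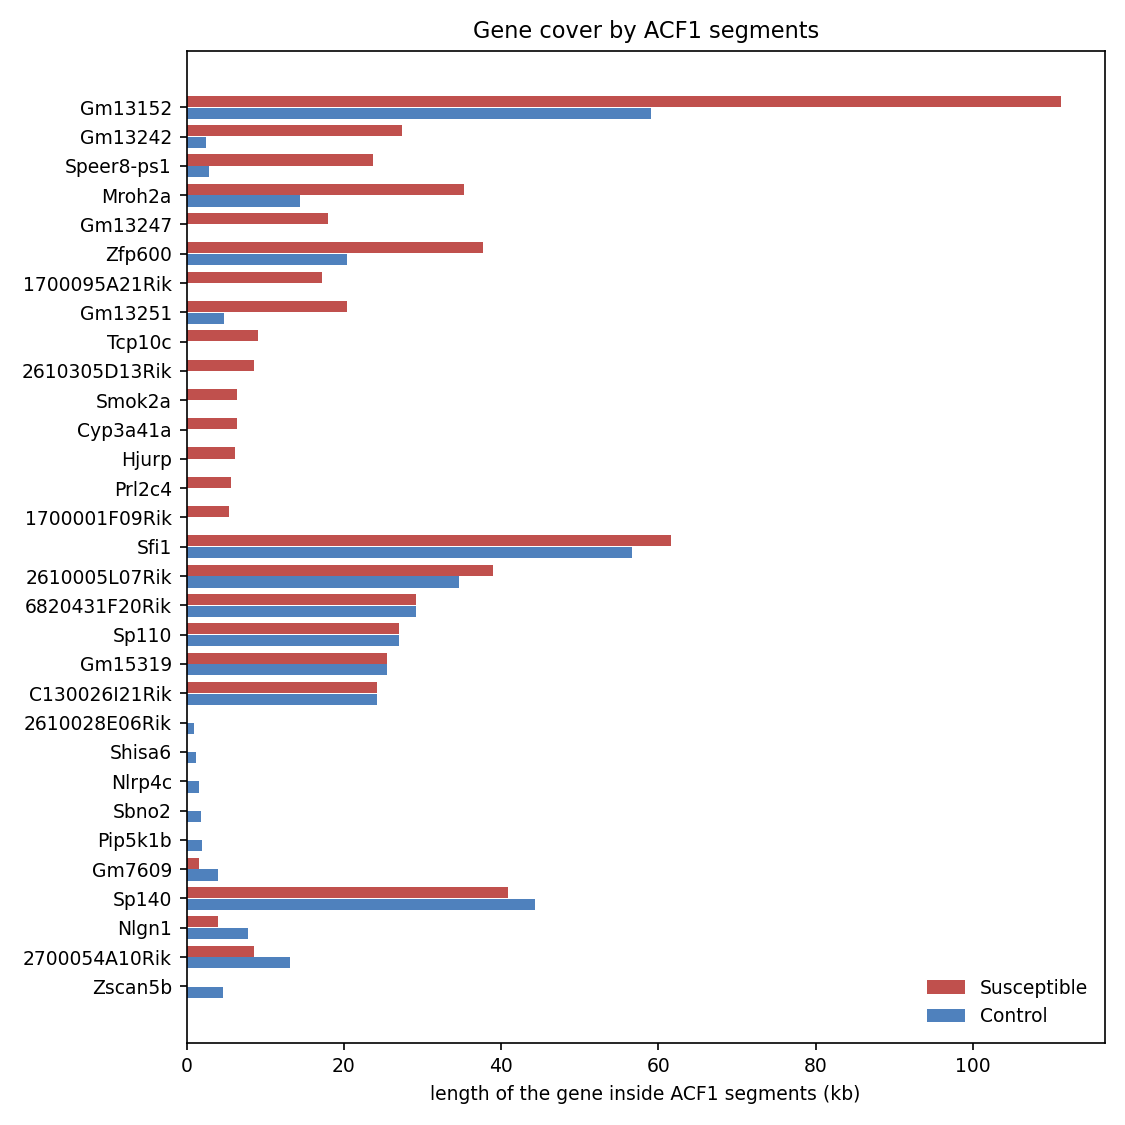
Length in kb covered by ACF1 segments in susceptible (upper bar) and control mice (lower bar) in the genes with the largest differences between the lists and with the most cover. The longest susceptible bars without a control bar belong to Gm13247 (18000 bp) and 1700095A21Rik (17200 bp).

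The genes with the largest susceptible excess included members of duplicated families and predicted genes, and no gene of the neuronal lists described below. On chromosome 4 they formed a cluster of zinc finger and predicted genes. Gm13152 was covered over 111200 bp in susceptible mice, 81200 bp in resilient mice and 59000 bp in control mice. Zfp600, which encodes a zinc finger protein, was covered over 37710 bp in susceptible mice, 25600 bp in resilient mice and 20400 bp in control mice. Gm13242 and Gm13251 showed the same order of susceptible over control, with 27400 bp against 2540 bp and 20411 bp against 4809 bp. Gm13247 (18000 bp), 1700095A21Rik (17200 bp) and 2610305D13Rik (8600 bp) held susceptible segments and neither resilient nor control ones.

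On chromosome 17, 3 of 6 Smok and Tcp10 genes, a group of testis-expressed t-complex genes, were covered in susceptible mice (50%, against 2.44% of all genes) and 0 in control mice (against 1.82% of all genes). These 3 genes lie in 1 block and were listed with this difference known. Their cover in susceptible mice was 9052 bp in Tcp10c, 6471 bp in Smok2a, which is its whole length, and 1584 bp in Smok2b. A neighbour, the long noncoding RNA gene 2700054A10Rik, went the other way with 8600 bp in susceptible mice, 3000 bp in resilient mice and 13200 bp in control mice. On chromosome 1, Mroh2a was covered over all of its 35270 bp in susceptible mice, 0 bp in resilient mice and 14406 bp in control mice. The gene beside it, Hjurp, which encodes a chaperone of the centromeric histone CENP-A, had 6170 bp in susceptible mice and 0 bp in control mice. The remaining genes of the 15 with the largest excess were Speer8-ps1 (23741 bp in susceptible, 2800 bp in control mice), and Cyp3a41a, Prl2c4 and 1700001F09Rik, which had 6400, 5718 and 5428 bp in susceptible and 0 bp in control mice. Of these, 1700001F09Rik was covered over the same 5428 bp in resilient mice. Cyp3a41a encodes a cytochrome P450 enzyme and Prl2c4 a placental hormone of the prolactin family.

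The control excess was smaller at each gene. Besides 2700054A10Rik, it was largest in Zscan5b, a zinc finger gene with 0 bp in susceptible and 4600 bp in control mice. Nlgn1 had 4000 bp in susceptible mice, 10000 bp in resilient mice and 7800 bp in control mice. Sp140 had 40923 bp in susceptible mice, 36323 bp in resilient mice and 44334 bp in control mice, and Gm7609 had 1615 bp in susceptible and 3952 bp in control mice. The other 5 of the 10, Pip5k1b, Sbno2, Nlrp4c, Shisa6 and 2610028E06Rik, had no susceptible segment and 1000 to 2000 bp in control mice. The last of them, with 1000 bp, was tied with other genes, so its place among the 10 is arbitrary. Shisa6 encodes an auxiliary subunit of AMPA receptors and Pip5k1b a kinase of phosphoinositides.

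Several of the most covered genes differed little or not at all between the lists. Sp110 (26992 bp), Gm15319 (25539 bp), C130026I21Rik (24223 bp) and 6820431F20Rik (29123 bp) lay wholly inside segments of both lists. Sfi1, which encodes a centrosomal protein, was covered over 61614 bp in susceptible and 56614 bp in control mice, and 2610005L07Rik over 39033 bp in susceptible and 34633 bp in control mice. The Sfi1 and Pisd group held segments in 4 of 5 genes (80%) in both susceptible and control mice, and the Sp100 family in 2 of 3 (66.7%) in both. Over all genes the shares were 2.44% in susceptible and 1.82% in control mice. The genes are not separate cases, since Pisd-ps1 and Pisd-ps3 share a locus and lie with Sfi1 in 1 susceptible segment. Sp110 and Sp140 also lie in 1 segment of each list.

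Among genes for inhibitory receptors, adhesion, ion channels and remodellers, at most 2 of a kind held a segment in susceptible mice and at most 1 in control mice, so their shares rest on very few genes. For comparison, 2.44% of all 7788 genes held a susceptible and 1.82% a control segment. Nrxn3, a presynaptic adhesion gene, held 800 bp in susceptible mice and 0 bp in control mice, and Nlgn1 is described above. Gphn, which encodes the inhibitory synapse scaffold gephyrin, was the only 1 of 6 inhibitory receptor genes (16.7%) with a segment, of 1200 bp in susceptible and 1200 bp in control mice. Among 19 adhesion and axon guidance genes, Ptprd (800 bp) and Dcc (1000 bp) held a susceptible segment (10.5%) and Lsamp (600 bp) a control segment (5.26%). Kcnj6, a potassium channel gene, held 800 bp in susceptible mice and 0 bp in control mice, alone among 12 ion channel genes (8.33%). Of 7 chromatin remodeller genes, Smarca4 held 1000 bp in susceptible mice alone and Baz2b 800 bp in control mice alone (14.3% each). These shares were above those over all genes in both lists where a gene was found, and whether the lists differ from other genes of like length was not tested. Nrxn3, Ptprd, Dcc, Kcnj6, Smarca4 and Baz2b each held a single segment of 800 or 1000 bp. At that width only 4.73% of susceptible and 9.62% of control segments were matched anywhere, so presence in 1 list alone was usual.

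Medium spiny neuron identity genes (5 with bounds), stress signalling genes (6), the 1 immediate early gene, and markers of astrocytes (2), oligodendrocytes (1), microglia (3) and cortical excitatory neurons (4) held no segment in either list. Over all 7788 genes only 2.44% held a susceptible and 1.82% a control segment, so lists this short would mostly hold none. Their empty counts therefore say nothing about these kinds of gene. The endothelial receptor gene Tek, 1 of 5 endothelial markers (20%, against 1.82% of all genes), held 1000 bp in control mice alone. Of 99 genes named as zinc finger genes, 3 held a susceptible segment (3.03%) and 2 a control segment (2.02%), close to the 2.44% and 1.82% over all genes. Olfactory and vomeronasal receptor genes held a segment in 1 of 275 cases in susceptible (0.364%) and 4 in control mice (1.45%), both below the shares over all genes. Predicted genes, whose names start with Gm, held a segment in 17 of 285 cases in susceptible (5.96%) and 10 in control mice (3.51%), and their cover was 240.655 kb in susceptible and 114.964 kb in control mice. RIKEN cDNA genes held one in 21 of 630 cases in susceptible (3.33%) and 13 in control mice (2.06%). Against the same background, the predicted genes lay above it in both lists and the RIKEN genes close to it. Cytochrome P450 genes were also close to it, with 2 of 64 in susceptible (3.12%) and 0 in control mice. Skint genes, of an epidermal immune family, held 2 of 11 in susceptible (18.2%) and 0 in control mice, and ribosomal and small RNA genes 1 of 18 in each (5.56%).

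Of the 7788 genes, 35 had their start inside a segment in susceptible and 21 in control mice, 19 of them in both. The lists differ in size, with 990 susceptible and 631 control segments, a ratio of 1.57. Whether gene starts were favoured beyond that difference in size was not tested. The promoters of these genes, from 250 bases before to 50 after the RefSeq start on the build GRCm38.p6, were looked up by symbol. Of 37 genes, 20 had an entry and 17 exactly 1. The RefSeq start may differ from the start that the tables give on mm9. The promoters below show the kinds of sequence found at these starts, each 5′ to 3′ on the strand of the gene, with CG dinucleotides, the sites of vertebrate DNA methylation, in capitals. The first 3 belong to starts inside a susceptible segment alone, Smok2b (chr17:13230013-13230312, plus strand), Tcp10c (chr17:13354322-13354621, plus strand) and Prdm16, a transcription factor gene (chr4:154636824-154637123, minus strand).
Smok2b: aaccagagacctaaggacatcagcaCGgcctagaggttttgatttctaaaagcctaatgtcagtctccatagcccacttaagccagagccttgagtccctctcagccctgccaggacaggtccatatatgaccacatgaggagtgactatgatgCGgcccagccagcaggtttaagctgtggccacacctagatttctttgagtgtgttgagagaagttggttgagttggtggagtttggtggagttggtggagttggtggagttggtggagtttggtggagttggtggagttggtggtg
Tcp10c: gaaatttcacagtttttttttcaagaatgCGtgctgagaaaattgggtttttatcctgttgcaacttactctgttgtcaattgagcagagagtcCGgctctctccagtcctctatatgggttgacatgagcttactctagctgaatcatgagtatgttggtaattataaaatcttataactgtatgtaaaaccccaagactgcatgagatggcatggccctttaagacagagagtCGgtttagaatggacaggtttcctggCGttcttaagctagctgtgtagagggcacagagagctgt
Prdm16: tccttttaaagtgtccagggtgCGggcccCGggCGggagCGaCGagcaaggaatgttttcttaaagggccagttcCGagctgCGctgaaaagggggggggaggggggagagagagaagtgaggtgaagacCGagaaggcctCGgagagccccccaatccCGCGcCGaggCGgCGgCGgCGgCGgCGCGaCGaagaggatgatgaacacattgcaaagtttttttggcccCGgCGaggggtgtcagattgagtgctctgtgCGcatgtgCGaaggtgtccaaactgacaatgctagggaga

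The start of Ikbke, which encodes a kinase of innate immune signalling, lay inside a control segment alone (chr1:131279514-131279813, minus strand). The starts of A530032D15Rik (chr1:85109804-85110103, minus strand), C130026I21Rik (chr1:85270517-85270816, minus strand), Sp140 (chr1:85600453-85600752, plus strand) and Gm15319 (chr8:20363153-20363452, minus strand) lay inside segments of both lists, and the first 3 are shown because they share long runs of sequence.
Ikbke: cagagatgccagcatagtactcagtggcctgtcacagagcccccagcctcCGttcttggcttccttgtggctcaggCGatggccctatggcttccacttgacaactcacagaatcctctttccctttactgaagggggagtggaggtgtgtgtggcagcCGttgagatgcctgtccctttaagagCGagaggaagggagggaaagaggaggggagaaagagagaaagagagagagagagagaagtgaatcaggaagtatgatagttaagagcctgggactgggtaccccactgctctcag
A530032D15Rik: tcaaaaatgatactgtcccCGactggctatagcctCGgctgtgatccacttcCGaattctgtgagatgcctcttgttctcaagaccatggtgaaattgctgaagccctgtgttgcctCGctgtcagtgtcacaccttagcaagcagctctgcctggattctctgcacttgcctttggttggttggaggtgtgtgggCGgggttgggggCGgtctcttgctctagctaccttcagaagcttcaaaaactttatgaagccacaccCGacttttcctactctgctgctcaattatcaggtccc
C130026I21Rik: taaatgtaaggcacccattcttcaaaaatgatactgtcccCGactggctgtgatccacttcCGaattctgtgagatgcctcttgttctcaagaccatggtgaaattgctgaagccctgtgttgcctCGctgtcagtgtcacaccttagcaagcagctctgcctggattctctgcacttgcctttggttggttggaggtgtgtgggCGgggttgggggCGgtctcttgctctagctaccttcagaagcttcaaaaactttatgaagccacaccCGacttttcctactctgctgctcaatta
Sp140: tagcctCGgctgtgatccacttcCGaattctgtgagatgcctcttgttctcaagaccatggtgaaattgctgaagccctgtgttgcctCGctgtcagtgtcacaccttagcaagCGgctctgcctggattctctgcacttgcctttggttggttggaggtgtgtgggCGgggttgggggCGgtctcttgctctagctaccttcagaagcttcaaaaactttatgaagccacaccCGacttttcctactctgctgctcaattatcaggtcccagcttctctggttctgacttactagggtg
Gm15319: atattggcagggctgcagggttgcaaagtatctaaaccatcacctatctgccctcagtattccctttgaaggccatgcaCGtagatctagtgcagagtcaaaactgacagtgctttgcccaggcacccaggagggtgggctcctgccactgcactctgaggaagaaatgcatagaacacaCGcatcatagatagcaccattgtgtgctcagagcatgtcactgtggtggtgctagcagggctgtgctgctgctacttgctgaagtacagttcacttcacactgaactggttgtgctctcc

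Among the 17 promoters, several of the loci that both lists covered widely were near copies of each other. Gm15319 and Gm21119 had the same 300 bases, and A530032D15Rik and C130026I21Rik shared an identical run of 255 bases. Sp140 shared a run of 155 bases with A530032D15Rik and 146 bases with C130026I21Rik, and 5031410I06Rik shared 86 bases with Gm17019. These 5 were the only ones of 136 pairs with a common run of 50 bases or more, and the median longest run over all pairs was 8 bases. A read of 100 bases, the length used here, that falls wholly inside such a run has more than 1 place of origin, and how such reads were placed is not given in the sources used here. The part of such reads in the segments was not tested. The 17 promoters held a median of 3 CG dinucleotides, against 7 over 31396 autosomal RefSeq promoters, and 88.2% held at least 1, against 94.8%. Prdm16 stood apart with 24, while Smok2b had 2, Tcp10c 4, Ikbke 4 and Gm15319 2. The comparison is of unlike sets, since the 31396 promoters were not limited to genes with bounds or with exactly 1 entry. The 17 are also not separate cases, because they include the near copies named above.

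The H3 comparison of the same groups, whose libraries the labels do not tie to the same mice, was a readout that the matching did not use. The authors' deposited table of H3 occupancy, susceptible against control, lists positions marked Up or Down, and Up was taken to mean higher in susceptible mice, which the files do not state. In that authors' deposited table, matched segments held 13.2 positions per 100 kb in the susceptible and 14.8 in the control list, against 1.99 over all autosomes. Unmatched segments held fewer in the authors' deposited table, with 4.67 per 100 kb in the susceptible and 3.41 in the control list. Chromosome 1 carried much of this, and without it the authors' deposited table gave 8.73 per 100 kb in matched and 3.73 in unmatched susceptible segments, 10.7 in matched and 2.17 in unmatched control segments, and 0.725 over the autosomes. The order, matched above unmatched above all autosomes, was the same with and without chromosome 1.

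The direction of the H3 positions followed chromosome 1. In the authors' deposited table, 84 of 261 positions in matched susceptible segments were Up (32.2%), and 28 of 58 in unmatched ones (48.3%). For control segments the authors' deposited table had 34.6% Up of 205 positions in matched segments and 3 Up of 12 in unmatched ones, and over all autosomes 14.6% were Up. Without chromosome 1 the authors' deposited table gave 49.6% and 59.1% Up in matched and unmatched susceptible segments, 50% in matched control segments and 40.2% over the autosomes. Single genes held many of the positions, with 35 in Sfi1 in the authors' deposited table, 24 of them Up, and 26 in the susceptible segment over Mroh2a, 3 of them Up. The control segments over Mroh2a, which are shorter, held 13 positions of the same authors' deposited table.

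Nucleosome shifts between susceptible and control mice were also dense in matched segments. The authors' deposited table of shifts had 314 positions in matched susceptible segments, or 15.9 per 100 kb, and 18 in unmatched ones, or 1.45 per 100 kb. For control segments the authors' deposited table gave 17.7 per 100 kb in matched and 1.14 in unmatched segments, against 0.158 over all autosomes. Chromosome 1 held 263 of the shifts inside susceptible segments in the authors' deposited table. Without it the density in the authors' deposited table was 3.80 per 100 kb in matched and 1.02 in unmatched susceptible segments, against 0.0242 over the autosomes.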

How the data were processed

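ACF1 ChIP-seq of the nucleus accumbens gave 1 deposited list per group, and 3 of the 15 samples of the series, the ACF1 samples, were used for segments. Each list, as deposited by the authors, divides every chromosome into states E1 and E2 with bounds on 200 bp steps and no score. The deposited H3 tables hold positions the authors had selected, marked Up or Down or with a shift in bp, and the bounds of the genes near them. The submitters' processing notes name CASAVA 1.8.2 and mm9. For the aligner, the program that made the states and the treatment of replicates, nothing is given in the sources used here. Libraries were made with 19 PCR cycles for ACF1 and 15 for H3, per the labels' protocols, and read over 100 bases. Amplification and the placing of reads that fit several copies can both shape where segments appear, and their part was not tested.

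Segments of state E2 on the 19 autosomes were kept and matched by an overlap of at least 1 bp, and matched segments were gathered into connected groups. Coordinates are 1-based on mm9, except those of RefSeq promoters, which are on GRCm38.p6. Gene bounds are the union over the 6 H3 tables, and 4 autosomal genes listed at separate loci kept each locus apart. No H3 position was tested here. The number of segments, their length, matched shares and gene counts are values with no test, since a group has 1 list. For the labels of the alternatives below, a share was taken to move when it left the 95% Wilson interval of its first value, which covers counting error only, and a number when it changed by over 1.5 times. The matching code was tested on simulated segments. Python 3.11.15, numpy 2.4.6, pandas 2.3.3, statsmodels 0.14.6 and matplotlib 3.10.9 were used. The genes named are the 15 with the largest susceptible excess in cover, the 10 with the largest control excess, the 10 with the most cover in both lists, and genes of set lists that held a segment, here reduced to counts for the lists made by name. Starts and promoters, the other genes of large blocks and the pairs with the largest change in width were chosen after their values were seen. The segments, gene lists and rules were chosen with earlier results of these data known. A result on 1 gene, and the count of the list that holds it, are not reported here.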

Additional observations from a re-analysis of the deposited data

Results flagged for a closer look

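Chromosomes X and Y and the mitochondrial genome were left out of the comparison and also held segments. Chromosome X had 112 segments over 735.8 kb in susceptible mice and 93 over 602.2 kb in control mice, a length ratio of 1.22. On chromosome Y the length was 284.4 kb in susceptible and 272.4 kb in control mice, a ratio of 1.04. The mitochondrial genome had 4.8 kb in 3 susceptible and 2.6 kb in 2 control segments, a ratio of 1.85. The ratios of X and Y were below the 1.85 over all autosomes. None of these differences was tested, since each group had 1 list.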

How the results depend on the processing

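No paired analysis was possible because each group had 1 list. Of 126 alternative values, 101 stayed within the limits given above, and the ratios without any 1 autosome ran from 1.54 to 1.59 in number and from 1.77 to 2.01 in length. For susceptible and then control segments the matched shares were 33.0% and 58.8% with segments of at least 1000 bp, 23.1% and 35.4% without those of 10 kb or more, 33.1% and 52.2% with X and Y, and 21.1% and 33.1% when the overlap had to cover 50% of both. Without segments of 800 and 1000 bp, a choice made after seeing the data, they were 46.8% and 66.8%. The ratio of susceptible to control was then 1.36 in number and 1.85 in length. In that setting the median widths were 2200 bp in susceptible and 1200 bp in control mice. There 17.9% of unmatched susceptible and 16.8% of unmatched control segments lay in the resilient list. Without the 10 fullest blocks, also chosen after seeing the data, the control share was 41.6%, 1 joined and 0 split groups remained, and H3 positions numbered 7.20 and 8.79 per 100 kb in matched susceptible and control segments. At least 1000 bp of width left 64 genes with susceptible and 25 with control segments alone. Leaving out chromosome 1 gave 49.6% Up and 8.73 positions per 100 kb in matched susceptible segments, 50% Up in matched control segments and 2.17 per 100 kb in unmatched ones. Counting H3 positions within 1000 bp gave 34.7% Up in unmatched susceptible segments. The cause was not tested. Of 62 gene values, 59 stayed within 1.5 times and 0 changed sign. With bounds widened by 2000 bp the susceptible minus control cover was 10471 bp for Smok2a and -5411 bp for Sp140, and with segments of at least 1000 bp it was -1000 bp for Sbno2. The files give no depth, so no counting interval of a segment could be set.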
